A study of Mus musculus with 9 samples.

Results

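The comparison described here sets blood monocytes of mice whose labels remove Fcgr2 from myeloid cells against monocytes of mice whose labels leave it there. It took 8 of the 9 libraries of the series, chosen by genotype. The deleted side held 5 libraries. They were labelled null (genotype Fcgr2-/-.Yaa, 2 Gr-1+ and 1 Gr-1-), which by its label is a deletion in every cell, and CEBPaCre (CEBPaCre;Fcgr2 fl/fl.Yaa, 1 Gr-1+ and 1 Gr-1-), in which a floxed gene is cut in cells where the CEBPaCre driver acts. The intact side held 3 libraries. They were labelled CD19Cre (CD19Cre;Fcgr2 fl/fl.Yaa, 1 Gr-1+ and 1 Gr-1-), whose driver belongs to B cells, and floxed (Fcgr2 fl/fl.Yaa, 1 Gr-1-), which carries no Cre. A CD11cCre library was left out of the groups and entered only 1 alternative fit. Every mouse was C57BL/6, 8 months old and carried Yaa, a copy of an X chromosome segment on the Y chromosome, so the series has no mouse without Yaa among these groups and no monocytes from plain wild-type mice. The intact CD19Cre mice still lose Fcgr2 in B cells by their label, and the null label covers B cells as well as monocytes. The intact Gr-1+ side is 1 CD19Cre library, because the floxed genotype was sorted as Gr-1- only. Whether any 2 libraries share a mouse is not stated in the labels. Only null Gr-1+ had 2 libraries of 1 genotype and subset. The p-values here therefore reflect spread between libraries that mostly differ in genotype, and part of it may be technical.

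Fcgr2 in the labels corresponds to the gene listed as Fcgr2b, which encodes CD32, the receptor that dampens cell activation when immune complexes of IgG bind. Monocytes carry it together with the activating receptors encoded by Fcgr1, Fcgr3 and Fcgr4, which signal through a shared gamma chain, and the balance of both sides sets how strongly a monocyte answers immune complexes. On the Yaa background, loss of this brake is known to lead to lupus-like disease, and monocytes of the blood are counted among the cells that take part. CD11b, the product of Itgam, and Gr-1, an epitope of Ly6C and Ly6G, were the sorting markers.

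Each library gave 1 value for each of 23234 gene symbols in FPKM (fragments scaled to transcript length and to the size of the library). Read counts were not given, so the depth of the libraries is unknown and no counting interval can be attached to a value. Between 9783 and 10258 symbols per library were at 1 FPKM or more. The comparison took 10429 genes, those averaging 1 FPKM or more, and was made on the log2(FPKM + 1) scale, with the sorted subset as a covariate. Differences are deleted minus intact on that scale, given with ± 1 standard error, and they understate the change of genes at low level. Values of a gene are listed in a fixed order. In Gr-1+ cells the deleted libraries are null replicate 1, null replicate 2 and CEBPaCre, and the intact library is CD19Cre. In Gr-1- cells the deleted libraries are null and CEBPaCre, and the intact libraries are CD19Cre and floxed.

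The 3 intact libraries were unlike each other. Within Gr-1-, CD19Cre and floxed lay at least 2-fold apart on the FPKM + 1 scale for 2631 of the 10429 genes (25.2%), while null and CEBPaCre, the deleted pair of that subset, lay that far apart for 442 (4.24%). Ribosomal protein genes made up 2.02% and 2.32% of all FPKM in the CD19Cre libraries, 5.92% in the floxed library and 4.79% to 7.87% in the deleted libraries. Classical monocyte genes summed to between 41574 and 52424 FPKM in the 4 Gr-1+ libraries and to between 12488 and 23846 in the 4 Gr-1- libraries, so the subset labels were followed in every library of the comparison. Markers of other cells were present and uneven. The 13 NK cell markers summed to 43.6 and 252 FPKM in the deleted Gr-1- libraries and to 171 and 404 FPKM in the intact ones, and to between 2.28 and 7.84 FPKM in Gr-1+. The 10 B cell markers summed to between 10.7 and 19.7 FPKM in the deleted Gr-1+ libraries and to 72.3 FPKM in the intact one, where Ms4a1, Pax5 and Ebf1 were at 0. The 11 T cell markers summed to at most 22.6 FPKM, in the floxed library, and the 7 erythroid markers to between 296 and 3715 FPKM. In bulk samples a smaller share of cells and less RNA per cell cannot be told apart.

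Fcgr2b itself did not follow the labels. It was at 201, 106 and 148 FPKM in the Gr-1+ libraries labelled deleted and at 195 FPKM in the one labelled intact. In Gr-1- it was at 145 and 83.05 FPKM in the libraries labelled deleted and at 105 and 74.9 FPKM in those labelled intact. The groups overlapped in both subsets, and the highest value of all was in a library labelled null. The mean was 137 ± 45.1 FPKM (SD, n = 5) in the deleted and 125 ± 62.5 (SD, n = 3) in the intact libraries, with a difference of -0.0039 on the log2 scale (exact two-sided permutation test within subsets over 24 assignments, p = 1, where the smallest p the design allows is 0.0417). The FPKM is a sum over the gene and does not show which exons the fragments came from, and the labels do not say which part of the gene the deletion removes. The value therefore does not check the labels. The directions below rest on the labels alone.

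**Figure D1:**
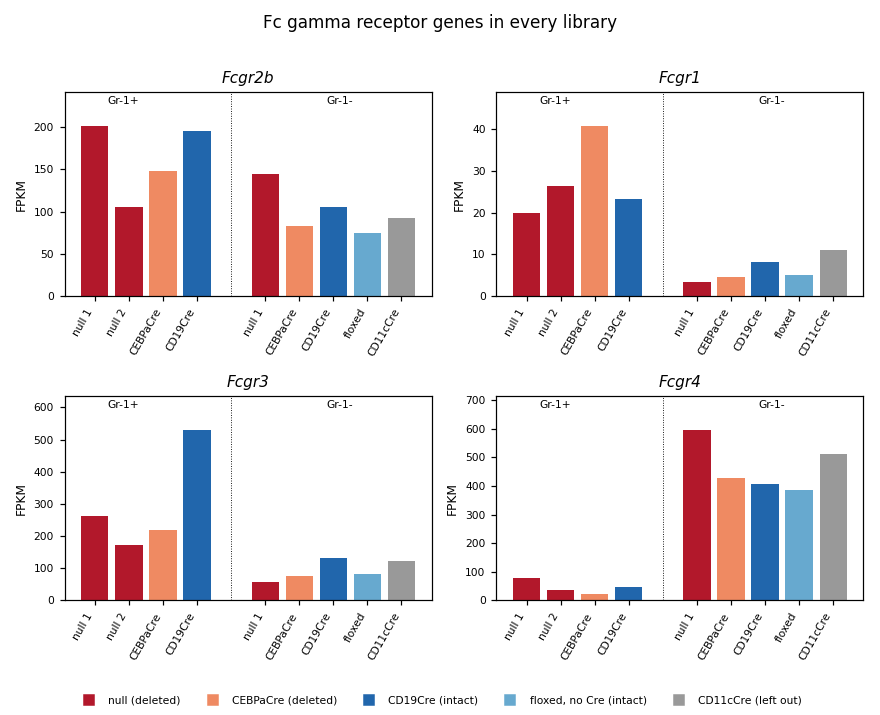
FPKM (linear axis from 0) of 4 Fc gamma receptor genes in each of the 9 libraries, Gr-1+ on the left and Gr-1- on the right of each panel, coloured by genotype, 1 bar per library. Fcgr2b bars of deleted and intact libraries interleave, while Fcgr3 is at 529 FPKM in the intact Gr-1+ library and between 172 and 262 in the deleted ones.

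Of the activating receptors, Fcgr3 was lower in every deleted library of each subset than in the intact ones. This low-affinity receptor, a partner of the gamma chain, was at 262, 172 and 219 FPKM in deleted and 529 in intact Gr-1+ cells, and at 58.9 and 75.3 FPKM in deleted and 130.5 and 83.4 in intact Gr-1- cells. The difference was -0.92 ± 0.28 (limma, unadjusted p = 0.00847, adjusted p = 0.306), and the CEBPaCre and floxed values of Gr-1- lay close together. Fcgr3 and Fcgr2b are alike in sequence over part of their length, so fragments from the shared stretches could be assigned to either. Fcgr1, the high-affinity receptor, overlapped between groups in Gr-1+ but not in Gr-1-, at 19.8, 26.4 and 40.6 against 23.1 FPKM in Gr-1+ and 3.33 and 4.56 against 8.21 and 4.99 FPKM in Gr-1-, with a difference of -0.23 ± 0.31. Fcgr4, the receptor typical of Gr-1- monocytes, was at 77.7, 35.1 and 22.6 against 46.5 FPKM in Gr-1+ and at 594 and 427 against 406 and 387 FPKM in Gr-1-. It was higher in each deleted Gr-1- library than in either intact one but not so in Gr-1+, and its difference was 0.10 ± 0.39.

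Across the genome no gene passed the test. With limma and Benjamini-Hochberg adjustment, 0 of 10429 genes (0%) had an adjusted p at or under 0.05, and the smallest adjusted p was 0.306. At an unadjusted p under 0.05 there were 889 genes with higher values in the deleted libraries (8.52%) and 581 with lower values (5.57%), together 14.1% of genes. The number of calls turned on the floxed library. Without it, when CD19Cre is the only intact genotype, 2551 genes were called, and with library weights, which gave the floxed library a weight of 0.179 and the others 0.667 to 1.84, 673 genes were called. Without both CD19Cre libraries, when floxed is the only intact library, 5 were called.

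A count without a test asked which differences hold in both subsets. A gene was counted when, within Gr-1+ and within Gr-1-, every deleted library lay on the same side of every intact library. On the higher side 961 genes met this (9.21% of those tested), and 481 on the lower side (4.61%), 13.8% together. Labels can be assigned within subsets in 24 ways, and a gene in random order meets each direction under 1 of them (0.0417). The share on the lower side was close to that. Within 1 subset the same count was 3070 higher (29.4%) and 4552 lower (43.6%) in Gr-1+, where 1 intact library stands alone, and 1475 higher (14.1%) and 834 lower (8%) in Gr-1-. The split moved with the scaling. It was 1087 higher and 1156 lower after median ratio scaling, 914 and 1105 after quantile normalization, and 1701 and 607 when libraries were rescaled to their total without ribosomal, mitochondrial and small RNA genes. That last scaling shifted the median difference of all genes from -0.03 to 0.13. It also raised all values, so 11529 genes passed the filter and the pseudocount weighed less. The balance also turned with single libraries, at 2001 higher and 3705 lower without floxed and 1199 and 1354 without CEBPaCre Gr-1-. Transcript length moved with the direction. The median length was 4262 nt for genes on the higher side, 1739.5 nt for those on the lower side and 2906 nt for all tested genes. With each library's trend on length removed, 868 genes were on the higher and 999 on the lower side. Of the 961 genes 478 were still on the higher side, and of the 481 genes 328 were still on the lower side.

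The stricter form also asked for at least 2-fold on the FPKM + 1 scale, for null and for CEBPaCre, against the mean of the intact libraries in each subset. Only 13 genes met it (0.125%). Those with higher values were Itgam, Cap1, Notch2, Tnrc18, Sik1, S100a4, Sun2, Hist1h4d and Snord17 (9 genes, 0.0863%), and the 4 with lower values (0.0384%) included Dok2 and the predicted gene Gm18853. Of the 13, 12 met it without the floxed library, 9 with the length trend removed and 3 without both CD19Cre libraries. In that last setting no intact Gr-1+ library remains, so the count covers Gr-1- alone, with floxed as the intact library. The genes named below follow a ranking by p and by the gap between groups. Those not named by it are list members whose values were seen before they were chosen.

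Itgam had the smallest p of any protein-coding gene tested, behind only the small RNA gene Snord17. With libraries of 1 genotype and number as a random block its adjusted p was 0.957, where the smallest of any gene was 0.498. It encodes CD11b, the alpha chain of the integrin Mac-1 (complement receptor 3), by which monocytes adhere and take up opsonised particles, and it is one of the markers by which the cells were sorted. Itgam was at 186, 170.0 and 184 FPKM in the deleted Gr-1+ libraries and at 61.7 in the intact one, and at 136 and 179.5 FPKM in the deleted Gr-1- libraries and 68.3 and 66.1 in the intact ones. All 5 deleted libraries lay at about 136 FPKM or above and the 3 intact ones were close together. The means were 171 ± 20.6 (SD, n = 5) and 65.4 ± 3.34 FPKM (SD, n = 3), and the difference was 1.34 ± 0.21 (unadjusted p = 0.000115). In Gr-1- the deleted mean was 1.23 above floxed and 1.18 above CD19Cre on the log2 scale, so both intact genotypes gave nearly the same value. The CD11cCre library, left out of the comparison, was at 157 FPKM. Without the floxed library the adjusted p of Itgam was 0.00863. Itgb2, the beta chain that pairs with CD11b, was lower in the deleted Gr-1+ libraries and overlapped between groups in Gr-1-, at 340.4, 311 and 401 against 544 FPKM in Gr-1+ and 609 and 809 against 959 and 429 FPKM in Gr-1-.

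The stretch of 250 bases before the transcription start is shown, from RefSeq's table for GRCm38.p6, for Itgam and for Notch2, because both lay on the higher side at every scaling and one holds a motif of myeloid promoters that the other lacks there. Capitals mark GAGGAAG (searched on both strands), the core of sites for PU.1, a factor known to act on the Itgam promoter in myeloid cells. Coordinates are those of GRCm38.p6, while the FPKM were made on mm9.
Itgam, chr7:128062390-128062639, plus strand: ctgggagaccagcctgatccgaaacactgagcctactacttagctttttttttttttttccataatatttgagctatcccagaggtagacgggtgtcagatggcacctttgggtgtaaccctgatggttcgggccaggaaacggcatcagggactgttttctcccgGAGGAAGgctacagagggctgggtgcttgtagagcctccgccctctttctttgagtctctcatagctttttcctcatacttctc
Notch2, chr3:98013288-98013537, plus strand: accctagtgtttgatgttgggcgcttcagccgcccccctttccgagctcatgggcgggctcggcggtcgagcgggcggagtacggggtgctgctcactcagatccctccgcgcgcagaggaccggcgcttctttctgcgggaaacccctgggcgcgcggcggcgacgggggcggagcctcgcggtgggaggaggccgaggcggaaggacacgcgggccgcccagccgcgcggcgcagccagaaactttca
Itgam holds the motif 1 time, starting 84 bases before the start site, and Notch2 holds it 0 times in this window. The motif was in 9.77% of the promoters of genes on the higher side, 9.41% on the lower side, 1143 of 10351 promoters of tested genes and 10.6% of all promoters in the table.

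**Figure D2:**
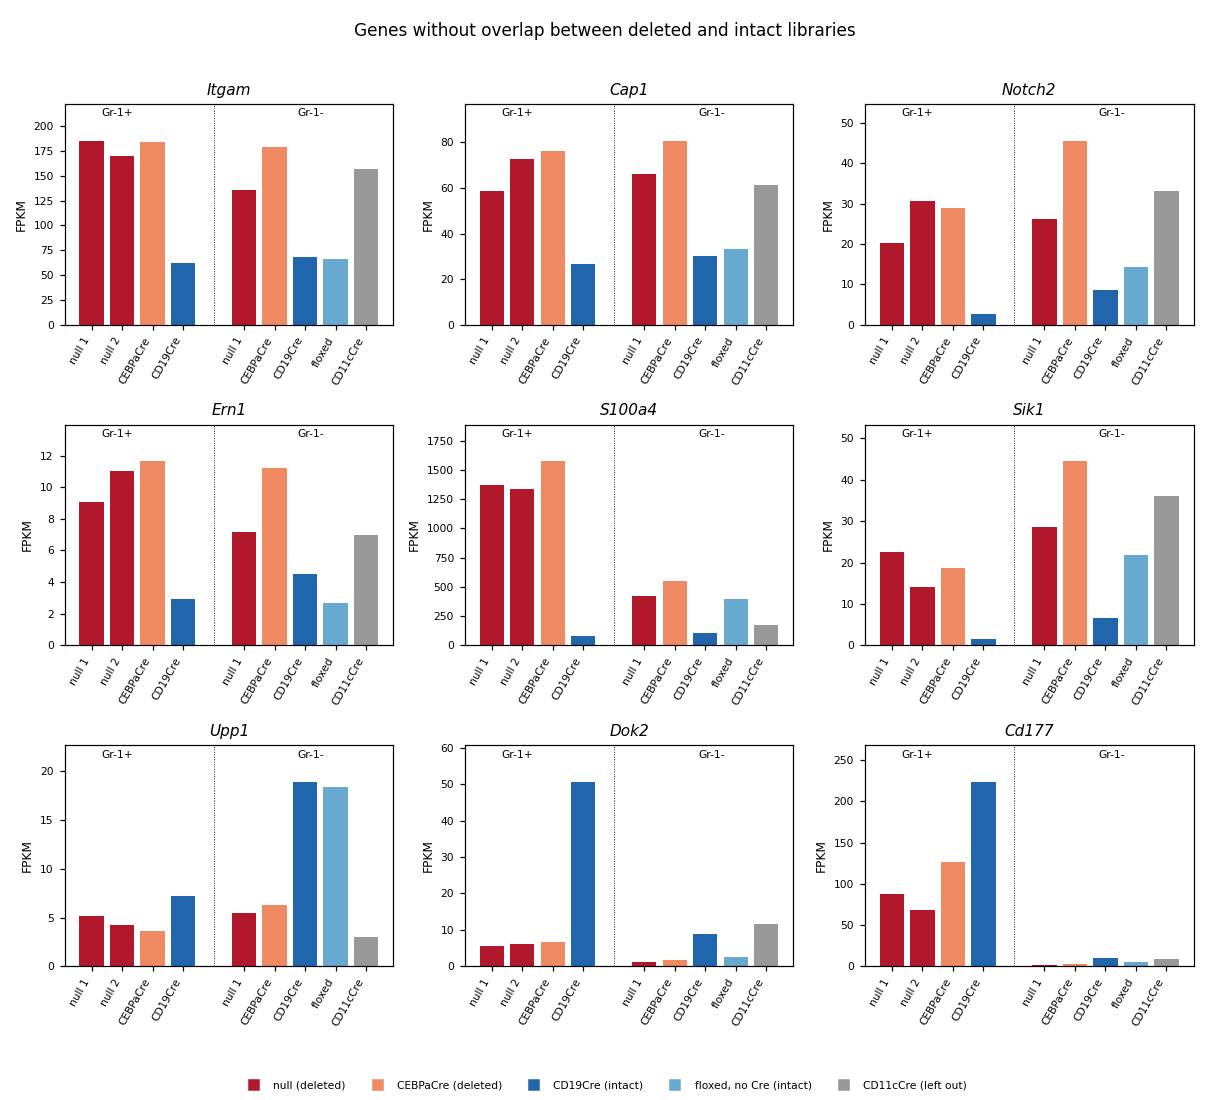
FPKM (linear axes from 0) in each library for 9 genes without overlap between deleted (red and orange) and intact (blue) libraries in either subset. Itgam and Cap1 show CD19Cre and floxed at similar height, and Ern1 has floxed (2.67 FPKM) below CD19Cre (4.54 FPKM) in Gr-1-. The floxed bars of S100a4 (395 FPKM) and Sik1 (21.9 FPKM) stand near the deleted ones.

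Integrins and the proteins that activate them were described as a list of 23 genes, 22 of them tested. On the higher side 6 had no overlap (Itgam, Itga4, Itgav, Rap1a, Rapgef1 and Vcl) and on the lower side 1 (Itga6, at 0.516, 2.55 and 2.01 against 2.94 FPKM in Gr-1+), beside 961 and 481 of all 10429. Rapgef1, an exchange factor that switches on Rap1 and through it integrins, was at 12.5, 13.04 and 14.4 against 4.22 FPKM in Gr-1+ and 19.4 and 26.8 against 15.4 and 14.4 in Gr-1- (0.96 ± 0.24). Itga4, the alpha chain of VLA-4, was at 38.3, 40.05 and 41.9 against 29.5 FPKM and 62.9 and 65.8 against 39.2 and 38.7 FPKM (0.59 ± 0.19). Vcl, which encodes vinculin and ties integrins to actin, was at 21.7, 23.7 and 25.5 against 18.9 FPKM and 15.2 and 21.7 against 13.4 and 8.82 FPKM (0.52 ± 0.23). The list's median difference was 0.14, against -0.03 for all tested genes. Without the floxed library it was -0.02, against -0.16 for all tested genes. Of its 22 members 10 lay below 0.

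Cap1, Plec and Sipa1l3 followed in p or gap. Cap1, which encodes a protein that recycles actin monomers, was at 58.8, 72.7 and 76.4 FPKM against 26.4 in Gr-1+ and at 66.1 and 80.8 FPKM against 30.1 and 33.4 in Gr-1- (1.25 ± 0.20, unadjusted p = 0.000163). The lowest deleted value, 58.8 FPKM, was well above the highest intact one, 33.4 FPKM. Plec, the gene of the cytoskeletal linker plectin, was at 21.8, 23.1 and 22.2 against 6.23 FPKM and 14.1 and 13.4 against 7.27 and 6.67 FPKM (1.23 ± 0.22). Sipa1l3, of a family that acts on Rap, was at 6.42, 5.14 and 6.24 against 0.980 FPKM and 7.40 and 11.5 against 4.27 and 3.89 FPKM (1.35 ± 0.24). In these 3 genes the floxed and CD19Cre values of Gr-1- were close together. Capg, which caps actin filaments, had the opposite direction, at 264, 288 and 459 against 904 FPKM and 17.3 and 18.2 against 90.97 and 29.3 FPKM (-1.48 ± 0.37), and there CD19Cre stood far above floxed.

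Notch2 encodes a receptor whose signal is known to help Ly6C-high monocytes convert to the Ly6C-low (Gr-1-) kind. It was at 20.3, 30.6 and 28.8 FPKM in the deleted Gr-1+ libraries against 2.61 FPKM in the intact one, and at 26.1 and 45.6 FPKM in deleted and 8.45 and 14.3 FPKM in intact Gr-1- libraries. The groups did not overlap, although floxed stood above CD19Cre. The difference was 2.14 ± 0.35 (unadjusted p = 0.000186), 2.91 in Gr-1+ and 1.56 in Gr-1- (interaction unadjusted p = 0.0532). It was 1.98 for null and 2.35 for CEBPaCre, each against the same intact libraries. Of 24 tested genes of the Notch pathway, 4 had no overlap on the higher side (Notch2, Notch1, Lfng and Maml3) and 0 on the lower side, beside 9.21% and 4.61% of all tested genes. Notch1 was low in Gr-1-, at 1.54 and 1.53 against 0.433 and 1.28 FPKM, and at 7.84, 6.71 and 8.54 against 2.03 FPKM in Gr-1+ (0.93 ± 0.27). Lfng, which adds sugars to Notch receptors, was at 60.2, 63.99 and 53.97 against 25.2 FPKM and 110.4 and 122 against 94.5 and 94.03 FPKM (0.68 ± 0.24). Maml3, a coactivator of Notch target genes, was at 3.81, 3.10 and 2.87 against 2.13 FPKM and 2.57 and 2.92 against 1.56 and 1.74 FPKM (0.47 ± 0.18). The list's count depended on the scaling, with 2 on each side after median ratio scaling and 2 higher and 3 lower once the length trend was removed, while Notch2 itself stayed separate under all 4 other scalings. The list's median difference was 0.08.

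Ern1 encodes IRE1, a sensor of misfolded protein in the endoplasmic reticulum, and Hyou1 a chaperone there. Ern1 was at 9.06, 11.02 and 11.6 FPKM against 2.94 in Gr-1+ and 7.18 and 11.2 FPKM against 4.54 and 2.67 in Gr-1- (1.32 ± 0.24, unadjusted p = 0.000389). Hyou1 was at 4.13, 6.69 and 7.56 FPKM against 2.14 and 3.95 and 5.78 FPKM against 1.53 and 1.60 (1.17 ± 0.23, unadjusted p = 0.000675). For both, floxed and CD19Cre lay below both deleted Gr-1- libraries. Most other genes of the unfolded protein response had the opposite sign. Of 27 tested genes 2 had no overlap on the higher side (Ern1 and Hyou1) and 0 on the lower side, beside 9.21% and 4.61% of all tested genes. Of the 27, 20 lay below 0, with a median of -0.32. On the lower side the count was 7 after median ratio scaling and 5 after quantile normalization, when rescaled and with the length trend removed. All tested genes then had 1156, 1105, 607 and 999 on that side, against 481 as reported. Hspa5, the chaperone BiP, was at 246, 206 and 251 FPKM in deleted and 713 in intact Gr-1+ cells, and at 165 and 216 against 473 and 144 FPKM in Gr-1-, where CD19Cre was the high library. Pdia6, an enzyme that makes disulfide bonds in the endoplasmic reticulum, was at 98.4, 117 and 135 against 381 FPKM and 59.8 and 83.2 against 182 and 67.8 FPKM. Sdf2l1 was at 69.7, 68.9 and 95.2 against 217 FPKM and 23.2 and 44.7 against 103 and 41.3 FPKM, and Creld2 at 21.5, 20.2 and 25.4 against 70.7 FPKM and 14.8 and 24.8 against 43.1 and 21.8 FPKM. Atf4, a transcription factor of this response, stood apart in both CD19Cre libraries on the low side, at 45.2, 32.3 and 40.1 against 6.45 FPKM and 42.97 and 47.8 against 14.9 and 43.9 FPKM. Without both CD19Cre libraries the median of the list was 0.35, the opposite sign, against 0.23 for all tested genes. That setting covers Gr-1- alone, with floxed as the intact library. The summed FPKM of the list was 3767 and 2520 in the CD19Cre libraries of Gr-1+ and Gr-1-, and 1385 in floxed.

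Further genes picked by p or gap had higher values in the deleted libraries. Khsrp, which directs the decay of unstable mRNAs, was at 20.4, 22.7 and 20.5 against 2.96 FPKM in Gr-1+ and 17.2 and 20.4 against 6.44 and 11.8 FPKM in Gr-1- (1.65 ± 0.33). Tnrc18 was at 11.4, 9.24 and 12.2 against 1.07 FPKM and 14.3 and 19.8 against 4.61 and 9.01 FPKM (1.80 ± 0.32). In both genes the order in Gr-1- was the same, with CD19Cre lowest, floxed next and both deleted libraries above. Sik1, a salt-inducible kinase that restrains cAMP-driven transcription, was at 22.5, 14.1 and 18.8 against 1.47 FPKM and 28.7 and 44.4 against 6.69 and 21.9 FPKM (2.11 ± 0.44). Hist1h4d, a histone H4 gene of a family of near-identical copies among which fragments may be split, was at 43.3, 17.2 and 53.3 against 3.33 FPKM and 47.7 and 57.9 against 8.39 and 27.7 FPKM (2.27 ± 0.50). For Sik1 and Hist1h4d the deleted mean of Gr-1- stood 0.68 and 0.90 above floxed on the log2 scale, and 2.26 and 2.51 above CD19Cre. Arih1, an E3 ubiquitin ligase, was at 13.8, 10.6 and 10.8 against 5.06 FPKM and 10.96 and 12.96 against 4.81 and 6.22 FPKM (1.03 ± 0.20), and Pi4kb, a lipid kinase of the Golgi, at 3.39, 4.65 and 6.16 against 1.41 FPKM and 4.58 and 6.34 against 2.19 and 2.24 FPKM (1.09 ± 0.22). In Gr-1- the deleted mean of Arih1 stood 0.84 above floxed and 1.15 above CD19Cre on the log2 scale. For Pi4kb these were 0.98 and 1.00. Sun2, a protein of the nuclear envelope, was at 3.08, 4.74 and 2.88 against 0.294 FPKM and 6.76 and 5.71 against 0.667 and 5.06 FPKM, and lost its separation under each of the other scalings.

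S100a4, a calcium-binding protein abundant in monocytes, had the largest Gr-1+ difference of the genes named here on the higher side. It was at 1374, 1338 and 1573 FPKM in the deleted Gr-1+ libraries against 77.9 FPKM in the intact one, and at 424 and 553 against 105 and 395 FPKM in Gr-1-. The floxed library was far closer to the deleted pair than to CD19Cre, and after median ratio scaling the groups overlapped. The difference was 2.50 ± 0.63, 4.18 in Gr-1+ and 1.25 in Gr-1- (interaction unadjusted p = 0.00845, adjusted p = 0.882). The CD11cCre library was at 175 FPKM.

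Genes with lower values in the deleted libraries included a signalling adaptor and surface and secreted proteins. Dok2, an adaptor that restrains signalling from tyrosine kinases in myeloid cells, was at 5.46, 6.11 and 6.53 FPKM against 50.6 in Gr-1+ and 1.28 and 1.84 FPKM against 8.90 and 2.54 in Gr-1- (-1.93 ± 0.42, unadjusted p = 0.00128). The floxed value was little above the deleted pair and far below CD19Cre. Il4i1, a secreted amino acid oxidase, was at 0.276, 0.235 and 0.204 against 1.26 FPKM and 4.58 and 6.03 against 9.51 and 8.27 FPKM (-0.75 ± 0.18). Cd177, a surface glycoprotein of neutrophils and some monocytes, was at 87.6, 68.2 and 127 against 223 FPKM and 1.67 and 2.95 against 9.43 and 4.71 FPKM (-1.26 ± 0.30). The neutrophil marker sum was 773 to 2422 FPKM in deleted Gr-1+ libraries and 1500 FPKM in the intact one, and 74.2 and 105 against 120 and 157 FPKM in Gr-1-. Its largest member in Gr-1+ was S100a8, also a classical monocyte gene, at 1423, 380 and 433 against 691 FPKM. Other members were uneven in Gr-1+. Ngp was at 31.6, 9.80 and 44.0 against 210 FPKM and Elane at 5.77, 4.87 and 5.12 against 18.0 FPKM. Mpo, Camp, Ltf, Ctsg, Il1r2, Csf3r and Padi4 were also higher in the intact Gr-1+ library than in every deleted one. Lcn2, at 330, 92.3 and 58.5 against 69.2 FPKM, and Prtn3, at 55.9, 29.0 and 27.1 against 34.2 FPKM, overlapped. So did S100a8, S100a9, Retnlg, Mmp9 and Stfa2l1, and Cxcr2 was lower in the intact Gr-1+ library than in every deleted one. The part of neutrophils in the Cd177 values was not tested.

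Further genes picked by p or gap had lower values in the deleted libraries. Upp1, uridine phosphorylase, was at 5.18, 4.20 and 3.66 against 7.25 FPKM in Gr-1+ and 5.51 and 6.31 against 18.9 and 18.4 FPKM in Gr-1- (-1.13 ± 0.24, unadjusted p = 0.000935). Floxed and CD19Cre were alike, and the CD11cCre library was at 2.96 FPKM. Josd2, a deubiquitinating enzyme, was at 18.8, 16.1 and 20.2 against 34.6 FPKM and 15.7 and 21.6 against 34.2 and 32.7 FPKM (-0.85 ± 0.20). Its 3 intact values spanned only 32.7 to 34.6 FPKM and its highest deleted value was 21.6 FPKM. Qtrt1, which puts queuine into tRNA, was at 6.89, 5.40 and 8.02 against 19.2 FPKM and 2.92 and 2.45 against 7.56 and 3.91 FPKM (-1.06 ± 0.26). Arl3, a small GTPase, was at 12.1, 11.1 and 11.9 against 22.3 FPKM and 3.95 and 4.99 against 7.96 and 7.28 FPKM (-0.76 ± 0.18). Dmkn and Nt5dc2 were mainly Gr-1+ genes. Dmkn was at 8.62, 7.04 and 3.13 against 27.7 FPKM in Gr-1+, and in Gr-1- it was listed at 0 in both deleted libraries and at 1.09 and 0.868 FPKM in the intact ones. Nt5dc2 was at 24.3, 13.003 and 14.9 against 63.7 FPKM and 0.422 and 0.289 against 1.85 and 0.878 FPKM.

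B cell markers were uneven between the intact genotypes. Cd79a, a chain of the B cell receptor, was at 0.334, 0.477 and 0.816 against 1.03 FPKM in Gr-1+ and at 5.08 and 19.99 against 16.3 and 29.1 FPKM in Gr-1-. Cd22, a B cell lectin, was at 0.796, 0.603 and 0.778 against 3.21 FPKM and 14.3 and 33.5 against 45.1 and 18.7 FPKM. Both overlapped in Gr-1-. Itgax, the gene whose promoter drives CD11cCre, was at 301 FPKM in the CD11cCre library and at 33.8 to 66.0 FPKM in the other Gr-1- libraries. Cebpa did not single out CEBPaCre. It was at 22.9, 36.1 and 22.6 against 1.64 FPKM in Gr-1+ and 4.39 and 4.49 against 1.43 and 4.78 FPKM in Gr-1-, low in both CD19Cre libraries and overlapping in Gr-1- through floxed (1.76 ± 0.56).

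**Figure D3:**
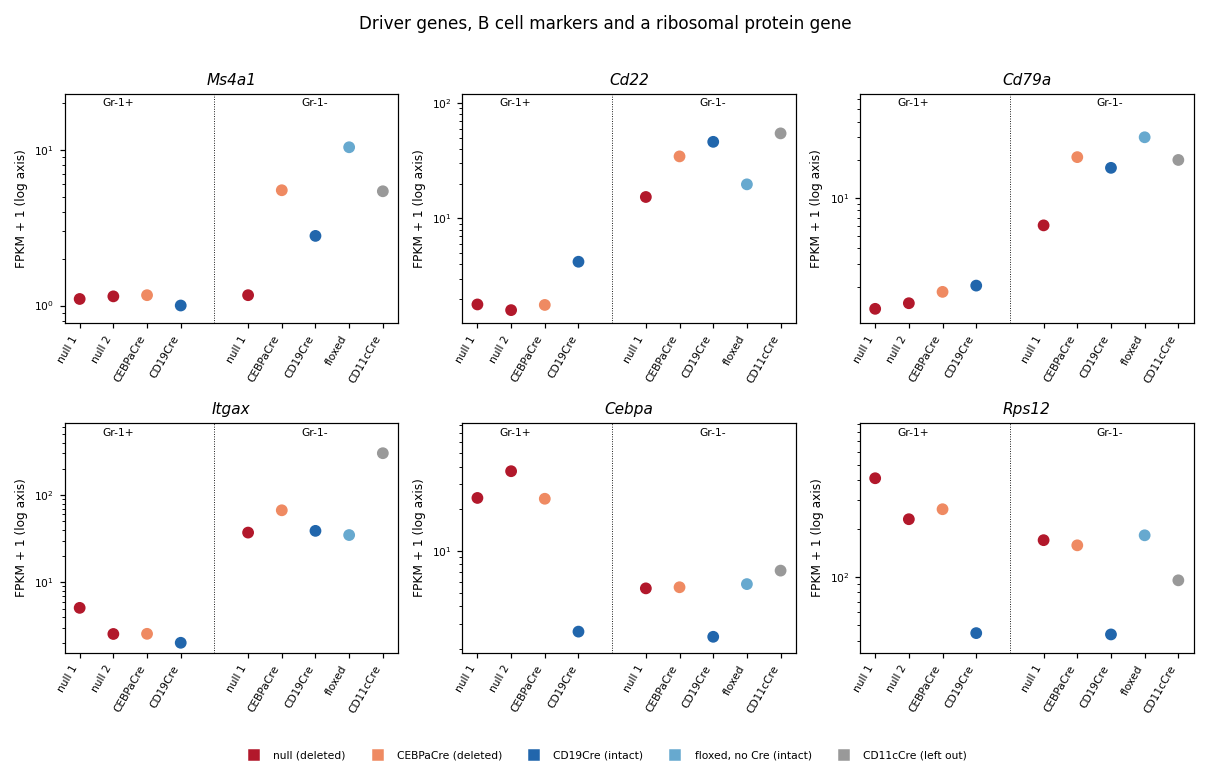
FPKM + 1 on a log axis for the driver genes Itgax and Cebpa, the B cell markers Ms4a1, Cd22 and Cd79a and the ribosomal protein gene Rps12, 1 point per library. Itgax is highest in the CD11cCre library, and Rps12 separates both CD19Cre libraries from the rest, floxed included.

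Signalling below the Fc receptors was covered by a list of 30 genes with the receptors included. Besides Fcgr3 and Dok2 on the lower side, 4 had no overlap on the higher side, Cbl, Cblb, Btk and Pik3r1, beside 9.21% higher and 4.61% lower of all tested genes. The list held 8 higher and 4 lower after median ratio scaling, after quantile normalization and when rescaled, and 5 and 4 with the length trend removed. Cbl and Cblb are ubiquitin ligases that end signalling by tagging kinases and receptors. Cbl was at 29.8, 26.4 and 33.1 against 20.1 FPKM in Gr-1+ and 26.000 and 30.3 against 18.2 and 12.9 FPKM in Gr-1- (0.71 ± 0.21). Cblb was at 10.1, 8.85 and 9.08 against 8.38 FPKM and 24.1 and 30.6 against 18.8 and 13.95 FPKM (0.46 ± 0.22). Btk, a kinase of the pathway, was at 23.99, 24.3 and 27.9 against 20.3 FPKM and 23.1 and 27.9 against 21.01 and 19.2 FPKM, and Pik3r1, a PI3 kinase subunit, at 6.98, 5.98 and 7.01 against 5.04 FPKM and 6.07 and 8.55 against 4.24 and 4.67 FPKM. Their gaps were narrow, and the other 24 members overlapped. The list's median was -0.04 and was above 0 under each of the 4 other scalings. Among 47 tested genes near Fcgr2b on chromosome 1, 2 were on the higher side (Dusp12 and Nit1) and 3 on the lower side (Fcgr3, Ppox and Pfdn2), with a median of 0.06. By the labels every library carries a targeted Fcgr2 locus, null or floxed. The comparison therefore does not set a targeted locus against an untargeted one. Of 12 tested genes of the Yaa segment, which all groups carry, 3 were on the higher side, Rab9 at 41.3, 32.3 and 36.1 against 15.7 FPKM and 21.6 and 25.2 against 15.6 and 18.9 FPKM, Msl3 at 25.6, 22.7 and 26.9 against 18.3 FPKM and 15.7 and 20.1 against 15.2 and 10.6 FPKM, and Ofd1, whose Gr-1- values of 1.82 and 1.83 against 1.79 and 1.78 FPKM were barely apart. Tlr7 and the other 8 overlapped.

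Genes that set apart the monocyte kinds were compared next, beside 9.21% higher and 4.61% lower of all tested genes. Of 24 tested classical monocyte genes 1 was on the higher side (S100a4) and 4 on the lower side, among them Cd177, F13a1 and Mgst1. F13a1, a coagulation factor chain, was at 375, 455 and 538 against 1205 FPKM in Gr-1+ and 7.82 and 5.56 against 28.3 and 7.94 FPKM in Gr-1- (-1.23 ± 0.38). Of 24 tested nonclassical genes 2 were on the higher side (Slc12a2 and Clec4a3) and 0 on the lower side. Slc12a2, an ion cotransporter, was at 3.60, 2.42 and 0.725 against 0.245 FPKM and 38.5 and 39.004 against 25.02 and 23.3 FPKM (0.92 ± 0.32). Spn, which encodes CD43, overlapped at 112 and 156 against 93.9 and 121 FPKM in Gr-1-. The medians were -0.15 for classical and 0.17 for nonclassical genes. The classical one turned to 0.02 when rescaled without ribosomal, mitochondrial and small RNA genes, where the median of all tested genes was 0.13.

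Secreted signals were counted against the same shares of all tested genes, 9.21% higher and 4.61% lower. Of 14 tested cytokines and B cell survival factors, Il1b and Il15 were on the higher side and Tnfsf14 on the lower side. Il1b was at 176, 45.8 and 102 FPKM against 32.6 in Gr-1+ and 517 and 615 FPKM against 226 and 406 in Gr-1- (1.15 ± 0.43). Its deleted Gr-1+ values spread more than 3-fold between both null libraries. Il15, which sustains NK and memory T cells, was at 9.25, 6.38 and 13.4 against 3.94 FPKM and 5.498 and 6.45 against 4.96 and 4.28 FPKM. Tgfb1 was at 166, 142 and 164 against 52.5 FPKM in Gr-1+ but overlapped in Gr-1-, at 81.1 and 101 against 54.7 and 95.9 FPKM. Of 18 tested chemokines and homing receptors 1 was on each side. Ccl9 was on the higher side, at 288, 246 and 241 against 105 FPKM and 101 and 69.2 against 57.1 and 61.2 FPKM, and lost its separation under each other scaling. Cxcr4, the receptor that holds cells in marrow, was at 23.7, 17.8 and 21.7 against 3.13 FPKM and 23.7 and 55.2 against 5.71 and 32.4 FPKM, where floxed lay between the deleted libraries.

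Interferon response genes were uneven among the deleted libraries. Of 28 tested members 0 were on the higher side and 1 on the lower side, beside 9.21% and 4.61% of all tested genes. Their summed FPKM was 894, 1910 and 4762 in the deleted Gr-1+ libraries and 1461 in the intact one, and 319 and 1357 against 790 and 1114 in Gr-1-. The median difference was -0.79 for null and 0.79 for CEBPaCre against the same intact libraries, and -0.08 for both together. The sums of the null Gr-1+ libraries lay on either side of the intact one, and CEBPaCre had 1 library per subset. Genotype and single libraries therefore cannot be told apart here. Of 17 tested genes of endosomal sensing, Ticam1 and Irak4 were on the higher side and Irf8 on the lower side. Ticam1, the adaptor TRIF, was at 6.93, 4.24 and 6.12 against 3.79 FPKM and 4.34 and 5.12 against 2.48 and 3.17 FPKM. Irf8, a factor of monocyte development, was at 108, 92.04 and 115 against 191 FPKM and 49.2 and 55.9 against 120.3 and 56.7 FPKM, with floxed just above CEBPaCre.

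Antigen presentation, clearance and lipid genes were counted next, beside 9.21% higher and 4.61% lower of all tested genes. Of 16 tested genes of MHC class II presentation 1 was on the higher side, Ifi30, a lysosomal reductase, at 590.4, 428 and 548 against 145 FPKM in Gr-1+ and 110.2 and 95.6 against 54.3 and 93.5 FPKM in Gr-1-. H2-DMa, which loads peptide, overlapped at 122, 145 and 289 against 243 FPKM in Gr-1+. Of 15 genes of complement and efferocytosis 0 had no overlap on either side. C1qb was at 19.7, 15.6 and 17.2 against 7.38 FPKM and 10.9 and 16.9 against 16.7 and 1.70 FPKM, with floxed the lowest and CD19Cre between the deleted values. Of 22 lysosome and lipid genes Abca1 and Npc1 were on the higher side and Trem2 on the lower side. Abca1, the cholesterol exporter, was at 3.81, 2.69 and 2.97 against 1.502 FPKM and 4.52 and 5.35 against 2.93 and 2.86 FPKM (0.66 ± 0.18). Lpl, lipoprotein lipase, was at 26.5, 23.3 and 37.02 against 7.17 FPKM in Gr-1+ but overlapped in Gr-1- through floxed, at 15.4 and 11.5 against 3.52 and 13.5 FPKM. Of 21 immediate early and stress genes Dusp2 and Zfp36 were on the higher side, and of 10 glucocorticoid targets Zbtb16. Dusp2 lost its separation under all 4 other scalings, Zfp36 under all but quantile normalization, and Zbtb16 with the length trend removed. The immediate early list then held 0 higher and 3 lower after median ratio scaling and with the length trend removed. Dusp2, a phosphatase of MAP kinases, was at 39.2, 8.91 and 18.1 against 3.10 FPKM and 92.3 and 78.3 against 36.2 and 76.5 FPKM, with floxed just under CEBPaCre.

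Cytosolic ribosomal protein genes had higher values in the deleted libraries together, and were lowest in the CD19Cre libraries. All 46 had a difference above 0, with a median of 0.86 (1.53 in Gr-1+ and 0.36 in Gr-1-), and 28 had an unadjusted p under 0.05. Of the 46, 6 had no overlap on the higher side, beside 9.21% of all tested genes. That count was 0 after median ratio scaling, 1 when rescaled, 9 with the length trend removed and 42 without floxed. Rps12 was at 411, 228 and 263 FPKM against 43.6 in Gr-1+ and 168 and 156 FPKM against 42.7 and 180.5 in Gr-1-, where floxed was above both deleted libraries. Rpl7 was at 526, 319 and 427 against 123 FPKM and 265 and 285 against 131 and 252 FPKM. The median of the list was 1.18 without the floxed library and -0.11 without both CD19Cre libraries, against -0.16 and 0.23 for all tested genes. The latter setting covers Gr-1- alone, with floxed as the intact library. Genes of the respiratory chain and ATP synthase had 8 of 41 tested members on the lower side and 0 on the higher side, beside 4.61% and 9.21% of all tested genes, with a median of -0.18. Uqcr11, a subunit of complex III, was at 286, 184 and 303 against 581 FPKM and 157 and 178 against 423 and 211 FPKM (-0.99 ± 0.31). Ndufb10, a subunit of complex I, was at 161, 109 and 170.5 against 232 FPKM and 117 and 119 against 216 and 134 FPKM. Many of these transcripts are short, as were the genes of the lower side as a whole. With the length trend removed 17 of the 41 were on the lower side. The lower side of all tested genes also grew then, to 999 of 10361 from 481 of 10429. The part of transcript length in the list was not tested. Of 13 tested cell cycle genes 1 was on the higher side (Pcna) and 3 on the lower side. Ccnb2, a mitotic cyclin, was at 8.28, 5.11 and 3.12 against 29.6 FPKM in Gr-1+ and 0.533 and 0.435 against 1.41 and 0.594 FPKM in Gr-1-. Rrm2, of nucleotide reduction, was at 1.33, 0.882 and 0.670 against 2.87 FPKM and 0.567 and 0.589 against 1.43 and 1.07 FPKM, and Aurkb, a mitotic kinase, at 5.89, 4.13 and 7.55 against 8.91 FPKM and 0.755 and 0.531 against 1.47 and 0.906 FPKM.

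**Figure D4:**
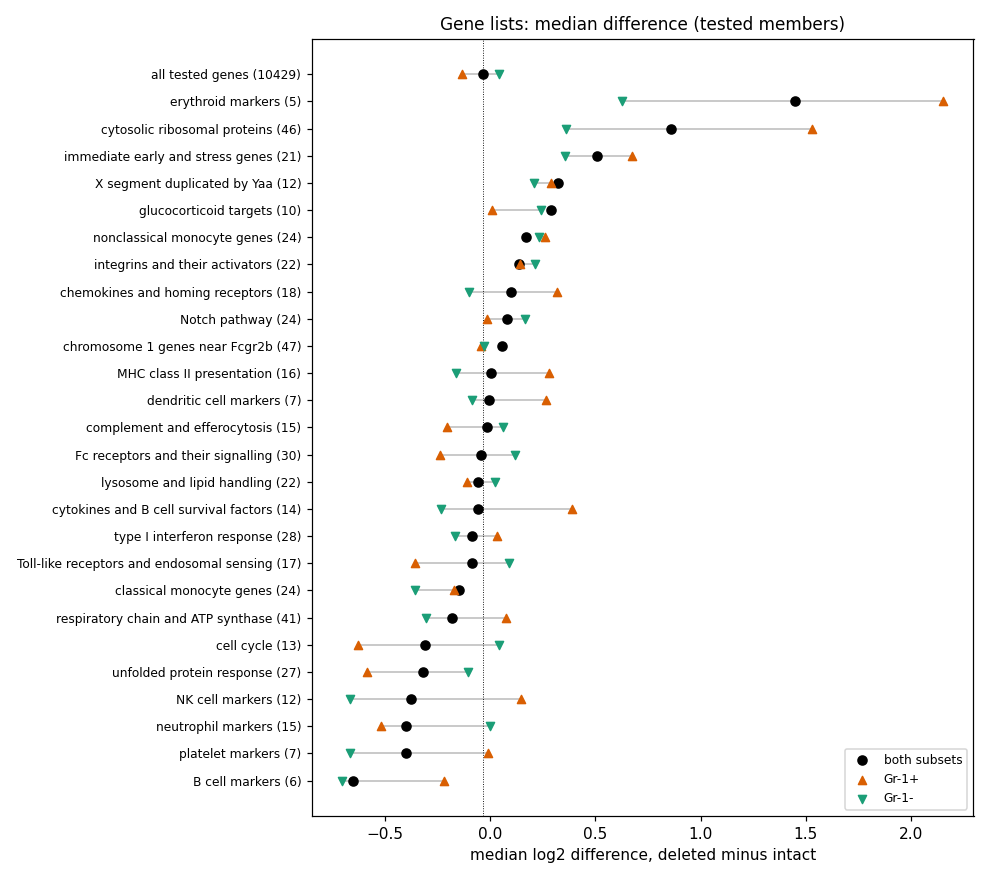
Median log2 difference, deleted minus intact, over the tested members of each gene list with at least 5 of them (number in brackets), for both subsets together (black), Gr-1+ (orange) and Gr-1- (green), with all tested genes in the top row and as the dotted line at -0.03. Ribosomal protein genes (0.86) and erythroid markers (1.45) stand out to the right, and B cell markers (-0.65) to the left.

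Markers of cells other than monocytes were separated mainly on the lower side. The shares of all tested genes to set beside these counts are 4.61% lower and 9.21% higher. Among 6 tested B cell markers 1 was on the lower side, and among 12 NK cell, 2 T cell, 7 dendritic cell and 5 erythroid markers 0 had no overlap on either side. Nkg7, of cytotoxic granules, was at 4.18 and 37.7 FPKM in the deleted Gr-1- libraries against 33.4 and 51.3 FPKM in the intact ones. Gzma, a granzyme, was at 9.67 and 68.6 against 59.3 and 88.5 FPKM there. In both genes null was the low library and CEBPaCre lay among the intact ones. Hbb-b2, a globin gene with a near-identical neighbour, was at 846, 912 and 224 against 61.3 FPKM in Gr-1+ and 1193 and 175 against 357 and 245 FPKM in Gr-1-, high in all 3 null libraries. Of 15 tested neutrophil markers Padi4 and Ltf were on the lower side. Padi4, which modifies histones, was at 21.3, 20.9 and 43.8 against 53.1 FPKM and 2.03 and 2.17 against 3.11 and 4.65 FPKM. Of 7 tested platelet markers 3 were on the lower side, Itga2b, Gp1bb and F5, and Itga2b, a platelet integrin chain, was at 0.638, 2.61 and 3.12 against 3.75 FPKM and 0.346 and 1.04 against 3.15 and 1.19 FPKM. The part of these cells in the other results was not tested.

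Both deleted genotypes were then set beside each other. Against the intact libraries 2 genes were called for null (0.0192%) and 2 for CEBPaCre (0.0192%), and between null and CEBPaCre 4 were called (0.0384%). All of these were small RNA genes, for which FPKM divides by a very short length. At an unadjusted p under 0.05 there were 1485 genes for null (14.2%), 946 for CEBPaCre (9.07%) and 521 between both (5%). The first 2 comparisons share their intact libraries. The leading genes were picked by p or gap over both deleted genotypes together, so like values in both are partly set by that choice. Itgam differed by 1.27 for null and 1.45 for CEBPaCre, Cap1 by 1.15 and 1.39, Ern1 by 1.18 and 1.51, and Dok2 by -2.07 and -1.74.

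The subsets were compared by the interaction. In Gr-1+, with 3 deleted libraries against 1, 9 genes were called (0.0863%), of which 5 were small RNA genes and 2 were pseudogenes or predicted genes. Ttyh3, which encodes a membrane channel protein, was also called, at 24.4, 24.9 and 22.5 FPKM against 2.93 in Gr-1+ and 21.99 and 29.6 FPKM against 17.1 and 21.01 in Gr-1-, and its groups were separate in both subsets with a far wider gap in Gr-1+. In Gr-1-, with 2 against 2, 6 genes were called (0.0575%), all small RNA genes, and 246 had an unadjusted p under 0.05 (2.36%), against 1754 in Gr-1+ (16.8%). The interaction gave 9 calls (0.0863%), 7 of small RNA genes and 2 of pseudogenes or predicted genes, and 339 genes at an unadjusted p under 0.05 (3.25%). For Ttyh3 the difference was 2.67 in Gr-1+ and 0.41 in Gr-1- (interaction unadjusted p = 0.000713, adjusted p = 0.496). The intact Gr-1+ side is CD19Cre alone, while the intact Gr-1- side also holds floxed. Without floxed, when CD19Cre is the intact genotype of both subsets, the interaction gave 9 calls. Against CD19Cre alone S100a4 differed by 4.18 in Gr-1+ and 2.195 in Gr-1-, Notch2 by 2.91 and 1.91, and Ttyh3 by 2.67 and 0.55. Itgam had 1.53 in Gr-1+ and 1.21 in Gr-1-, Cap1 1.35 and 1.18, Arih1 1.06 and 1.00, Hyou1 1.15 and 1.18, and Josd2 -0.89 and -0.83.

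**Figure D5:**
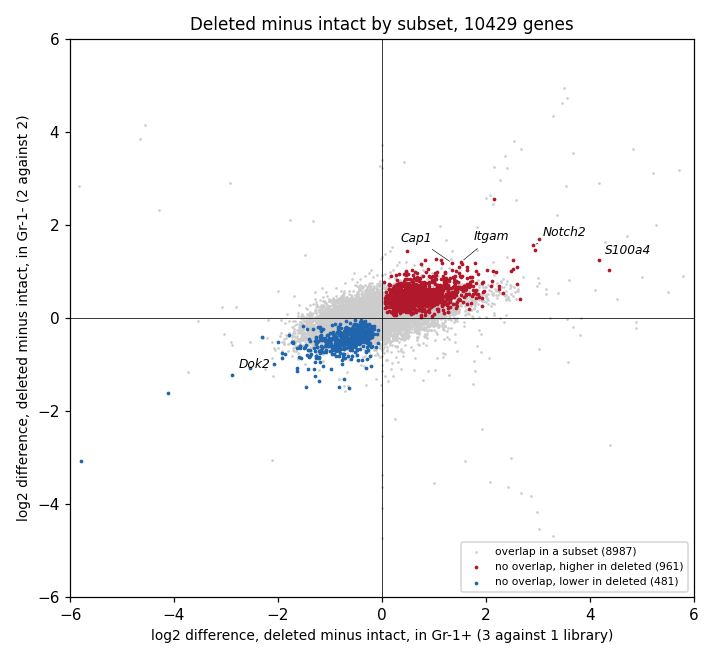
Log2 difference, deleted minus intact, in Gr-1+ (x axis, 3 libraries against 1) and in Gr-1- (y axis, 2 against 2), 1 point per tested gene, with genes without overlap in both subsets in red (961, higher in deleted) and blue (481, lower in deleted). Itgam and Cap1 lie near the diagonal and S100a4 and Dok2 nearer the Gr-1+ axis (25 genes lie outside the limits of 6).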

How the data were processed

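RNA of CD11b+ blood monocytes sorted as Gr-1+ or Gr-1- was measured in 9 libraries (about 1e5 cells, SMART-Seq v4, per the labels). The deposited values are FPKM per gene symbol, made by the authors with TopHat2 2.0.8 and Cufflinks 2.1.1 on mm9, per the submitters' processing notes. Counts were not given, so depth is unknown and no count test was run. Of the deposited columns 0 were left out, and the CD11cCre library entered the filter and 1 alternative, in which it was counted as deleted.

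Genes averaging 1 FPKM or more (all 9 libraries) and above 0 in 2 or more fitted libraries were tested on log2(FPKM + 1) with limma 3.58.1 (R 4.3.3, mean-variance trend), subset and deletion as terms, and Benjamini-Hochberg adjustment at 0.05. Scripts were tested on simulated data. Named genes were the first 12 by p and the first 10 by smallest gap in each direction at 5 FPKM or more, and 2 per list; further ones were chosen after their values were seen. The groups, the members and the 28 lists were chosen with earlier results of these data known. Of the symbols 20645 are current in RefSeq's GRCm38 tables, 2321 matched by an older name and 268 had no match. Alternatives were other pseudocounts, filters, scalings, library weights, a replicate block and each library left out. Leaving out small RNA and predicted genes, and removing the trend on transcript length, were added after seeing the data. Results on some genes are not reported here.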

Additional observations from a re-analysis of the deposited data

Results flagged for a closer look

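In 110 genes the 5 deleted libraries were searched for 1 that stands far from the other 4, and chance alone does this in about 1 of 20 genes. The search pooled both subsets, so a gene expressed mainly in Gr-1- can flag a Gr-1- library by subset alone. The number of flags below is no more than that rate gives. The CEBPaCre Gr-1- library stood apart on the high side in 4 genes. Cxcr4 was at 55.2 FPKM there, Nkg7 at 37.7, Gzma at 68.6 and Lck at 3.56. Nkg7, Gzma and Lck are genes of NK and T cells that were near the floor in Gr-1+. In the intact Gr-1- libraries Nkg7 was at 33.4 and 51.3 FPKM, Gzma at 59.3 and 88.5 and Lck at 5.62 and 4.38. CEBPaCre thus lay among or below the intact values of its subset in these genes. The NK cell markers summed to 252 FPKM in that library against 43.6 in the null Gr-1- library. In the CD11cCre library, which was in neither group, Itgax was at 300.9 FPKM, above the intact Gr-1- libraries at 37.9 and 33.8. The causes were not tested.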

How the results depend on the processing

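Of 2826 values of named genes under other settings, 2634 kept direction and call, 153 passed the threshold only there and 39 changed sign. The number of genes called, 0 as reported, was 752 in Gr-1+ only, 12 in Gr-1- only, 673 with library weights, 5 without both CD19Cre libraries, and 0 to 2551 with 1 library left out (2551 without floxed, 6 without CD19Cre Gr-1+). In Gr-1+ it was 440 with weights, 16 with a pseudocount of 0.1 and 5 to 728 with 1 left out. In Gr-1- it was 0 without small RNA and predicted genes, and 6 to 10 with 1 left out. The interaction gave 5 after quantile normalization, 1 without small RNA genes and 7 to 18 with 1 left out. For null it was 2600 with weights, 0 without small RNA genes and 2 to 4059 with 1 left out. For CEBPaCre it was 59, 0 and 0 to 1547, and between both 9 with weights and 3 to 10 with 1 left out. Genes on the higher side numbered 577 at a mean of 5 FPKM, 1701 when rescaled, 6002 without both CD19Cre libraries and 994 to 2001 with 1 left out. Those on the lower side numbered 1156 (median ratio), 1105 (quantile), 999 (length trend removed), 2007 without both CD19Cre libraries and 486 to 3705 with 1 left out. The strict count was 144 at 1.5-fold, 2 at 3-fold, 43 and 3 with pseudocounts of 0.1 and 5, 45 when rescaled, 135 without both CD19Cre libraries and 8 to 263 with 1 left out. Rescaling also raised all values against the filter and the pseudocount, and 11529 genes were then tested. Without both CD19Cre libraries, or without CD19Cre Gr-1+, no intact Gr-1+ library remains. The higher, lower and strict counts of those settings, and their differences given below, therefore cover Gr-1- alone and not both subsets. The difference of Fcgr2b was 0.074 (median ratio), 0.14 (quantile), 0.16 (rescaled), 0.024 (length), 0.54 without both CD19Cre libraries and -0.26 to 0.30 with 1 left out. Signs changed without both CD19Cre libraries for Cebpa (-0.088), Aim2 (-0.12), Tgfb1 (-0.083), Cfp (0.75), Lpl (-0.026), Klf4 (-0.29), Rps12 (-0.15), Cd22 (0.22), Hbb-b1 (-0.081), Hspa5 (0.39), Pdia6 (0.056) and Itgb2 (0.71). In Gr-1+ only they changed for Fcgr1 (0.25), Lck (0.22), Batf3 (0.15), Fcgr4 (-0.23) and Cd8b1 (0.44), and in Gr-1- only for Flt3 (-0.088) and Itgb2 (0.13). Cd8b1 was 0.041 with a pseudocount of 0.1, 0.080 when rescaled, 0.079 with the length trend removed and 0.28 with weights. With 1 library left out, Cd8b1 ran from -0.46 to 0.48, Fcgr4 from -0.074 to 0.35, Flt3 from -0.088 to 0.50 and Itgb2 from -0.55 to 0.13. The replicate block was run for deleted against intact only, where it called 0 genes and left 234 higher and 112 lower at an unadjusted p under 0.05, against 889 and 581 without it. Same-genotype libraries of both subsets, which the labels do not tie to 1 mouse, correlated in their deviations at 0.263 (null 1), 0.205 (CEBPaCre) and 0.597 (CD19Cre). The causes were not tested. Depth is unknown and 1 intact Gr-1+ library limits every value.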
